A study of Mus musculus with 5 samples.

Results

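The ependymal lining of the lateral ventricles of the adult mouse forebrain was profiled here cell by cell. The cells were the 240 columns of the deposited count table whose names start with Forebrain, out of 1473 cells in the series, and they were taken as the sample that the labels assign to the lateral ventricle of the Foxj1 line. They were compared with 245 third-ventricle cells and 114 spinal cord cells of the same line. All 3 groups came from 3-month-old FoxJ1CreERT2 R26TdT mice, in which tamoxifen-inducible Cre, driven from Foxj1, turns on tdTomato in cells with active Foxj1. Tissue came from 10 animals of this line, 5 females and 5 males, and single cells were sorted into 96-well plates and made into Smart-seq2 libraries, a full-length method without molecular identifiers. The labels name no tamoxifen schedule and tie no well to an animal. The series was made to study how Sox9 and NFI factors time neurogenesis and ependymal maturation. Midbrain cells of the Foxj1 line served as a further reference, limited to the 303 that had a Foxj1 read and under 100 CPM of Sspo, the secreted product of the subcommissural organ. CPM is the reads of a gene per 1000000 reads counted in genes. The Sspo limit was set with earlier results of these data known, and 15 midbrain cells lay between 50 and 200 CPM.

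Ependymal cells form the single-layered, multiciliated epithelium between the brain and the cerebrospinal fluid. Foxj1 and the RFX factors drive the genes of motile cilia, whose beating moves the fluid along the wall. In the lateral ventricle the ependyma descends from telencephalic radial glia and surrounds the neural stem cells of the ventricular-subventricular zone.

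Each group held 1 sample, so no difference between regions can be set against replicate error, region and sample cannot be told apart, and no p-value is given. Intervals printed here are exact 95% limits, Poisson for CPM and Clopper-Pearson for shares of cells, and cover counting error only. The lateral ventricle cells held 180906553 reads in all, with a median of 715589 per cell (range 121536 to 1938714) and 5435.5 detected genes. The third-ventricle cells had medians of 734669 reads and 5341 genes, and the spinal cord cells 759184 reads and 3979.5 genes. The share of mitochondrially encoded genes was 5.44% of lateral ventricle reads, 5.08% of third-ventricle reads and 9.17% of spinal cord reads. By Xist and Y-linked reads, 65 lateral ventricle cells were female, 68 were male and 107 could not be set. Split by cell number into blocks of 96, which are taken to follow the wells, the lateral ventricle gave 81, 80 and 79 cells. The middle block held 1 female and 42 male cells and a median of 4423.5 detected genes, against 5615 and 5873 in the other blocks. Of the spinal cord cells, 75 were male and 1 was female.

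The ependymal label held in every cell. Of 16 ependymal markers, each lateral ventricle cell had reads of at least 13, with a median of 16. Foxj1, the master regulator of motile cilia, had reads in 240 of 240 cells (98.5 to 100%) at a per-cell median of 464 CPM, and its summed level was 491 CPM here, 460 in third-ventricle cells and 543 in spinal cord cells. Tmem212, a membrane protein used as an ependymal marker, had reads in all 240 cells, at 3586 CPM, against 2984 in the third ventricle, and 2.03 times the spinal cord level. Ccdc153, a coiled-coil protein of ciliated cells, was also in all 240 cells, at 3823 CPM, against 3636 in third-ventricle cells and 1986 in spinal cord cells. The regional markers were not in every cell. Zic4, a zinc finger factor of dorsal neural tissue, had reads in 174 cells (72.5%), and Emx1, a homeobox factor of the cortical neuroepithelium, in 62 cells (25.8%, 20.4 to 31.9%).

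Promoters of 3 ciliary genes and 2 forebrain factors are shown to set genes that all compared regions share (Ccdc153, the tektin Tekt1 and the cilium protein Enkur) beside genes higher in the lateral ventricle (Emx1 and Dmrt3). The sequences are the 250 bases before the annotated start, credited to RefSeq on GRCm38.p6, and lie at chr9:44240427-44240676 (plus strand) for Ccdc153, chr11:72361883-72362132 (minus) for Tekt1, chr2:21205366-21205615 (minus) for Enkur, chr6:85187681-85187930 (plus) for Emx1 and chr19:25610287-25610536 (plus) for Dmrt3. Capitals mark GTTGCC, a core of the RFX binding motif, or its reverse complement GGCAAC.
Ccdc153: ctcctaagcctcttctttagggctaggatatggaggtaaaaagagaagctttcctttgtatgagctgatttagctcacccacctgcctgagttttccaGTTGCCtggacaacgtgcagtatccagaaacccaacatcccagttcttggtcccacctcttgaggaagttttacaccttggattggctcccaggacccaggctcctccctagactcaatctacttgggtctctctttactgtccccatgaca
Tekt1: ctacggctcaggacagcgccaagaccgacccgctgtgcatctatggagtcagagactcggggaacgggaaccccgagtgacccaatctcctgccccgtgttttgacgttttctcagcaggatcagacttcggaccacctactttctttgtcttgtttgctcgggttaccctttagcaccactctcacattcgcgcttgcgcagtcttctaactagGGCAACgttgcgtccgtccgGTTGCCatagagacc
Enkur: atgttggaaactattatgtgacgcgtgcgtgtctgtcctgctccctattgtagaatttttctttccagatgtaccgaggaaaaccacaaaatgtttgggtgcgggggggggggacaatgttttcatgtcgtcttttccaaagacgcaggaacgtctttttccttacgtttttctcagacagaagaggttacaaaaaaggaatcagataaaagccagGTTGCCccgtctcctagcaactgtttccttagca
Emx1: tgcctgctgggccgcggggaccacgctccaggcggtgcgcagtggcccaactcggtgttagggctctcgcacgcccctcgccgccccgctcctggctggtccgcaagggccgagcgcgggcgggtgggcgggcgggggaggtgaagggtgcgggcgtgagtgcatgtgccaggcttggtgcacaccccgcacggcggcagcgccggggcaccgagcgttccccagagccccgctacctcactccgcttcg
Dmrt3: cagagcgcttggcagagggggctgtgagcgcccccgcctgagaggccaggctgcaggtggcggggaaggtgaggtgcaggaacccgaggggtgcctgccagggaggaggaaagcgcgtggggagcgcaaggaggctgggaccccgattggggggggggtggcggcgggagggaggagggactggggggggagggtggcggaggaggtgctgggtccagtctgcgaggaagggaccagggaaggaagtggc
The motif lies 152 to 147 bases before the start in Ccdc153 and 34 to 29 bases before it in Enkur. Tekt1 holds it at 15 to 10 bases and, on the other strand, at 35 to 30 bases. The 3 ciliary promoters were picked because they hold it. The windows of Emx1 and Dmrt3 shown were picked for their level and hold none. Searched on both strands in windows of 250 bases before to 50 after the start, GTTGCC was found for 12 of 29 axoneme genes with a promoter entry (41.4%), 4 of 12 ependymal markers (33.3%) and 3820 of 27018 genes in all (14.1%). It was also found for 6 of 30 genes called higher in the lateral ventricle (20%), 2 of 9 dorsal midline factors (22.2%) and 2 of 12 cortical and telencephalic factors (16.7%). Of 5 motifs searched in the axoneme genes, this one had the most matches. Longer palindromic forms of the RFX motif (the X-box with a spacer of 2 bases, with a spacer of 1 base, and a strict form) matched 3, 1 and 0 of the 29 axoneme genes, against 2.16%, 1.18% and 0.355% of all genes. The forkhead motif TGTTTAC matched 1 of 29, against 4.05% of all genes. These are letter matches only. In base composition the 300-base window of Emx1 held 37 CG dinucleotides, a number that 5.58% of all windows reach. The windows of Dmrt3, Tekt1, Enkur and Ccdc153 held 15, 20, 13 and 1, where the median of all windows was 7.

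Scaled to transcript length, the lateral ventricle transcriptome was led by mitochondrial transcripts, lipid and metal handling genes, and cilia genes. The 10 highest genes held 16.1% of the length-scaled total and the 100 highest 37.0%. On this scale of reads per length, set to sum to 1000000, the highest nuclear gene was Dbi, an acyl-CoA binding protein, at 23263, followed by Apoe, the main brain lipid carrier, at 14952, and Nnat, a small membrane proteolipid, at 12260. Tmem212 ranked next at 12080, above the metallothioneins Mt1 at 9786 and Mt3 at 9526, and the chaperone Clu at 8957. Dynlrb2, a dynein light chain, reached 6797. Foxj1 itself stood at 451 and Emx1 at 34.4. Detection was broad: 155 genes had reads in all 240 cells, 4332 in at least 50% of them and 11793 in at least 10%, and 365 of 16347 genes had 0 reads. Apoe set the spinal cord apart, at 13254 CPM in lateral and 11886 in third-ventricle cells against 619 in spinal cord cells.

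Genes of the cilium itself differed little between regions. All 33 measured axoneme components reached a mean of 10 CPM over the samples, and 0 of them differed 4-fold from either region. Over all genes, 0.704% were called higher and 0.905% lower against the third ventricle, and 4.36% and 2.54% against the spinal cord, so 0 calls say little. Within 2-fold of the third ventricle and the spinal cord lay 32 and 33 of the 33, beside 9086 and 7906 of 9652 genes. Their median log2 ratio was 0.09 against the third ventricle and -0.07 against the spinal cord, beside -0.03 and -0.03 over all genes. Tekt1, a tektin of the microtubule doublets, stood at 694, 667 and 555 CPM in the lateral and the third ventricle and the cord, and Hydin, a central pair protein, at 363, 302 and 380. Summed per cell, the axoneme genes had a median of 12007 CPM and a coefficient of variation of 0.171 across the lateral ventricle cells, 0.209 across the third-ventricle cells and 0.229 across the spinal cord cells. Among regulators of multiciliation, Rfx2 stood at 203, 213 and 253 CPM and Rfx3 at 122, 116 and 139. Gmnc, which starts the programme in precursors, was at 2.69 CPM with reads in 10.4% of cells. Of 13 such regulators that could be called against the spinal cord, 1 was lower in the lateral ventricle and 0 were higher. Against the third ventricle, 0 of 12 were called. SOX and NFI factors had median log2 ratios of 0.02 against the third ventricle and -0.56 against the spinal cord. Sox9 was read in all 240 lateral ventricle cells, at 1.14 times the level of the third ventricle (1296 CPM) and 1.39 times that of the spinal cord (1066 CPM). Nfia stood at 353, 254 and 323 CPM in the 3 regions. Among the 12 that could be called against the third ventricle and the 11 against the spinal cord, 0 members differed 4-fold. At the shares of all genes given above, lists this short can hold 0 calls, so this count does not show equal levels. Of 11 members at a mean of 10 CPM or more, 11 and 9 lay within 2-fold.

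A gene was called higher in the lateral ventricle when it had at least 10 CPM there, reads in at least 10% of its cells and at least 4 times the level of both other regions, and lower by the mirror rule. Of 9359 genes that could be called higher, 48 were (0.513%), and of 8199 that could be called lower, 19 were (0.232%). Against the third ventricle alone 70 genes were higher (0.704%) and 90 lower (0.905%) of 9946. Against the spinal cord alone 437 were higher (4.36%) and 254 lower (2.54%) of 10012. The counts against the spinal cord were thus the larger ones in both directions. In 45 of the 48 higher genes, every lateral ventricle block lay above every block of the other regions. Blocks are subsets of the cells that set the calls, not replicates, so their order is largely fixed by the selection. Their share of positive lateral ventricle cells ran from 10% to 92.9%, with a median of 29.6%, and 9 of them had reads in at least 50% of cells. Male cells alone gave 75 higher and 63 lower genes, of which 32 and 10 were among the 48 and 19, and means of the authors' normalized log2 values gave 31 and 9, of which 13 and 3 were. Just outside the fold limit lay Adssl1 at 3.97-fold, and just inside it Fam114a1 at 4.19-fold and Tnnt2 at 4.29-fold.

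**Figure D1:**
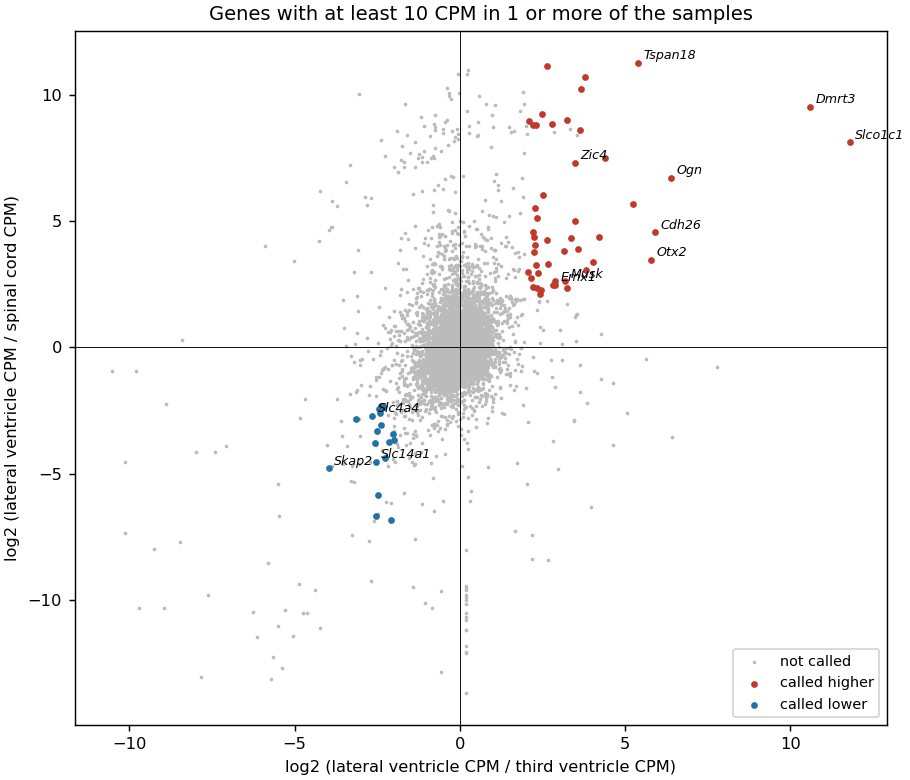
Each point is a gene with at least 10 CPM in 1 or more of the compared samples, placed by its log2 ratio of lateral ventricle to the third ventricle (horizontal) and to spinal cord (vertical). Sums of fewer than 3 reads were raised to a floor of 3 reads. The 48 genes called higher (red) lie upper right and the 19 called lower (blue) lower left, and the wider vertical scatter goes with the larger counts against the spinal cord.

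Forebrain patterning factors were among the groups with called members. Of the cortical and telencephalic factors reported here, Emx1 and Dmrt3 were higher than in both other regions. Emx1, a homeobox factor of the dorsal telencephalon, stood at 25.7, 41.8 and 26.3 CPM in the lateral ventricle blocks, at 0.752 to 6.57 in the third ventricle and at 0 and 8.87 in the spinal cord. Its summed 31.2 CPM (30.3 to 32.0) was 7.40 times the third-ventricle level and 5.53 times the spinal cord level, the latter set by 2 cells with reads. Dmrt3, a doublesex-related factor of the cortical midline, stood at 22.1, 31.5 and 15 CPM in the lateral ventricle blocks. It had 1 third-ventricle read and 0 spinal cord reads, so its 23.0 CPM was at least 727-fold higher than the spinal cord. It was read in only 41 lateral ventricle cells (17.1%).

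Emx2 and Lhx2 were below the 10 CPM limit. Emx2, the paralogue of Emx1, stood at 7.41 CPM with reads in 30 lateral ventricle cells and 0 reads in the other regions, at least 504-fold higher than the third ventricle. Lhx2, the LIM factor that selects cortical fate, stood at 8.67 CPM against 0.167 and 0.0423. Pax6, Nr2f1 and Nr2f2 did not follow this pattern. Pax6 stood at 28.4 CPM in lateral ventricle cells, 37.0 in third-ventricle cells and 132 in spinal cord cells, and Nr2f2 at 31.7, 68.3 and 55.1. Hox genes, the positional code of the hindbrain and cord, marked the opposite end. Of 19 measured Hox genes, 12 had 0 reads in the lateral ventricle and all summed to 0.182 CPM there, against 825 CPM in the spinal cord.

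**Figure D2:**
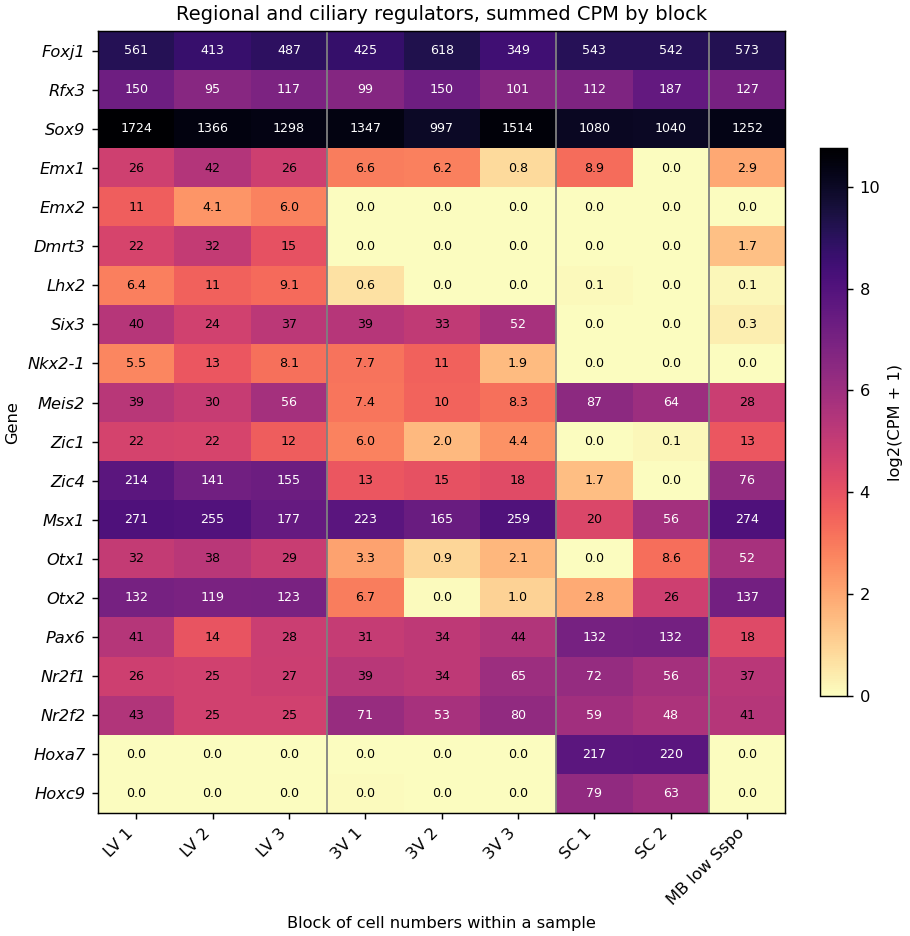
Summed CPM (printed in each cell, colour as log2 of CPM plus 1) of ciliary and regional regulators in the blocks of 96 cell numbers of the lateral ventricle (LV), the third ventricle (3V) and spinal cord (SC), and in midbrain cells with low Sspo (MB). Foxj1 and Sox9 are high in every column, Emx2 has reads only in the lateral ventricle blocks, Dmrt3 reaches 1.68 CPM in the midbrain, and Hoxa7 and Hoxc9 are above 1 CPM only in the spinal cord.

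None of Emx1, Emx2, Dmrt3 and Lhx2 was read in most lateral ventricle cells. Counting these 4 together, a set put together after values were seen, 117 of 240 lateral ventricle cells (48.8%) had reads of at least 1 of them, against 23 of 245 in the third ventricle (9.39%) and 3 of 114 in the spinal cord (2.63%). At least 2 of the 4 were read in 37, 1 and 0 cells. A read alone can be a trace, so the count was repeated for cells with 10 CPM or more of at least 1 factor, which were 101 (42.1%), 18 (7.35%) and 3 (2.63%). With every cell thinned to 100000 reads, the shares with at least 1 were 45.4%, 7.35% and 2.63%. All 4 were read in 1 lateral ventricle cell. In the 62 cells with Emx1, Dmrt3 was read in 21%, against 15.7% of the cells without it. Cells with Emx1 more often had Il17b, a cytokine of the interleukin-17 family (53.2%, 40.1 to 66.0%, against 30.3%, 23.7 to 37.7%). This pair was chosen after its values were seen, and the cells share a sample. Emx2, Lhx2 and Zic4 also had higher shares in cells with Emx1, while Nkx2-1 and Six3 had lower ones. The part of detection depth in these shares was not tested. Of the 20 third-ventricle cells with an Emx1 read, 0 had an Otx2 read and 2 a Zic4 read. In all, 7 and 38 third-ventricle cells had reads of these genes, so the counts are too small to tell whether they go together.

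Among the dorsal midline factors, Zic4 and Otx2 were read in more cells than any telencephalic factor named above. Of 13 measured factors, 4 were called higher than both regions (Zic1, Zic4, Otx1 and Otx2) and 0 lower. The shares over all genes that could be called were 0.513% and 0.232%. Against each region alone, 7 of the 13 could be called. Zic4 stood at 214, 141 and 155 CPM in the lateral ventricle blocks, at 13.2, 15.1 and 17.7 in the third ventricle and at 1.70 and 0.0289 in the spinal cord. Every lateral ventricle block was above every other block, which the call itself largely fixes, and the summed 173 CPM was 11.1 times the third-ventricle level. Otx2, a head homeobox factor also made by choroid plexus, had reads in 160 lateral ventricle cells (66.7%), 7 third-ventricle cells and 6 spinal cord cells. Its blocks stood at 132, 119 and 123 CPM in the lateral ventricle, at 0.0297 to 6.67 in the third ventricle and at 2.80 and 26.0 in the spinal cord. Otx1, its paralogue, was at 32.9, 2.02 and 3.14 CPM. Zic1 was at 18.9, 4.07 and 0.0423 CPM. Zic1 (chr9:91358058-91365810) and Zic4 (chr9:91362413-91389348) overlap on opposite strands, so without strand their reads cannot be fully told apart. Msx1, a homeobox target of BMP signalling, did not separate the ventricles, at 238 and 218 CPM, but stood at 33.3 in the spinal cord. Six3, a factor of the anterior forebrain, was shared by the ventricles as well, at 34.0 and 42.4 CPM, with 0 reads in the spinal cord.

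**Figure D3:**
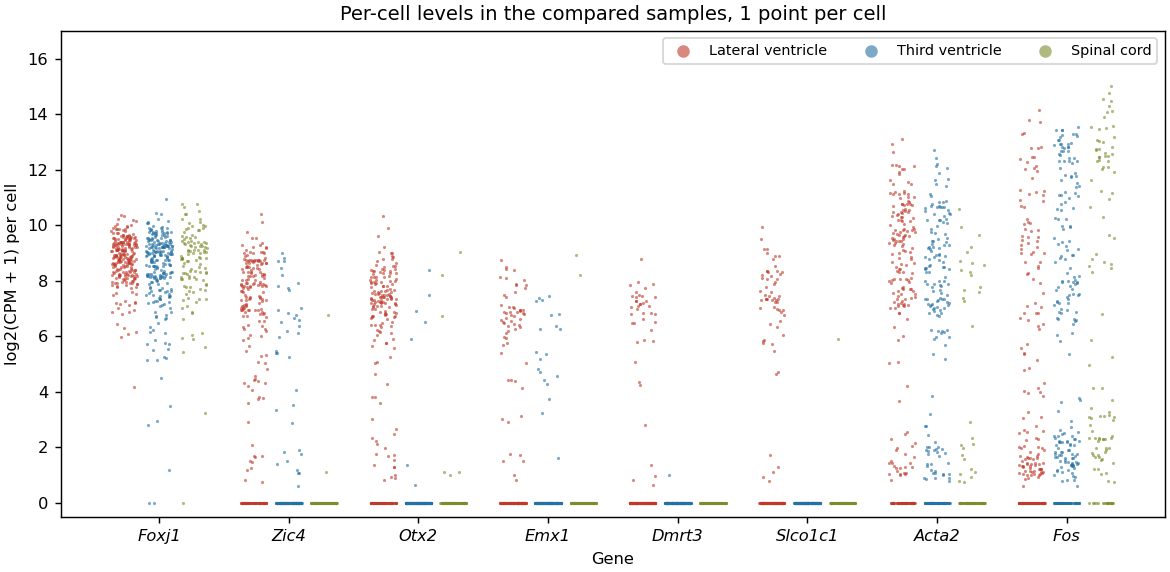
Level of 8 genes in each cell, as log2 of CPM plus 1, for lateral ventricle (red), third-ventricle (blue) and spinal cord (green) cells. Foxj1 was read in at least 99.1% of cells of each sample, Zic4 and Otx2 are read in 72.5% and 66.7% of lateral ventricle cells, and Emx1 and Dmrt3 in 25.8% and 17.1%.

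The list of transporters and xenobiotic enzymes had 2 members called higher of 23 measured (Slco1c1 and Cyp4f15), and the adhesion list 1 of 26 (Lamb1). Over all genes that could be called higher, 48 of 9359 were (0.513%). Against the third ventricle alone only 18 and 17 members of these lists could be called. Counts this small describe single genes and not the lists. Slco1c1, the carrier of thyroxine, stood at 76.0, 32.9 and 44.2 CPM in the lateral ventricle blocks, had 0 reads in the third ventricle and 18 reads in 1 spinal cord cell. Its 52.5 CPM was at least 3563-fold higher than the third ventricle, although only 61 cells (25.4%) had reads. Cdh26, an atypical cadherin, was much more widely read, in 174 cells (72.5%), and stood at 270, 217 and 220 CPM by block against 3.93 CPM for the third ventricle and 10.1 for the cord. Musk, a receptor kinase best known from the neuromuscular junction, had reads in 223 cells (92.9%) and stood at 379, 41.7 and 61.7 CPM, 6.15-fold over the nearer region. Paqr5, a membrane progestin receptor, was at 300, 52.5 and 4.62 CPM with reads in 82.5% of cells. Tspan18, a tetraspanin, was at 77.7 and 1.84 CPM in the ventricles with 1 spinal cord read, and Lamb1, a laminin chain of basement membranes, at 71.7 and 11.6 CPM with 0 spinal cord reads. Rbp2, a cellular retinol-binding protein, stood at 121, 24.4 and 12.7 CPM. The secreted Il17b, Fgf18 and Hp (haptoglobin) stood at 48.5, 14.3 and 64.9 CPM, 18.4, 4.92 and 5.01 times their nearer region. Ogn, a small leucine-rich proteoglycan, had reads in 50 cells and stood at 22.1 CPM against 0.265 and 0.211.

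Many of these genes were also read in the midbrain reference. Of the 48 higher genes, 10 were also at least 4-fold above the midbrain cells with low Sspo and 20 at least 2-fold, while 8 were higher in the midbrain. Dmrt3 was 13.7-fold and Emx1 10.7-fold above the midbrain level. Otx2 stood at 137 CPM and Cdh26 at 303 CPM in the midbrain, both above their lateral ventricle levels. Igfbp2, a carrier of insulin-like growth factors, was not called but was also high in the midbrain: 393 CPM in the lateral ventricle, 410 in the midbrain, 121 in the spinal cord and 41.2 in the third ventricle. Wls, which escorts Wnt proteins to the surface, stood at 674, 815, 607 and 79.7 CPM in the same order, so that here the third ventricle was the low sample.

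Genes called lower in the lateral ventricle were read in few of its cells, at most 38.8%. Slc14a1, a urea transporter, had the highest level of them: 38.9, 64.7 and 33.2 CPM in the lateral ventricle blocks, 241 to 326 in those of the third ventricle and at least 826 in those of the cord. The blocks did not overlap, and the third ventricle was 5.84-fold above the lateral ventricle, but in male cells the log2 difference from the nearer region was 1.82, under the 4-fold limit. Slc4a4, the sodium bicarbonate cotransporter of glia, stood at 12.4 CPM with reads in 17.5% of cells, against 77.7 CPM and 55.5% in the third ventricle and 81.0 CPM and 50% in the spinal cord. Lsamp, a cell adhesion molecule of limbic circuits, stood at 6.12, 54.2 and 43.9 CPM. Skap2, an adaptor of integrin signalling, had the largest ratio, at 1.16, 18.1 and 32.0 CPM, but only 3 lateral ventricle cells had a read and 1 of them held 84.7% of the reads. Astn1, which takes part in glial-guided neuron migration, was at 7.28, 34.6 and 150 CPM, with a log2 difference of 1.5 in male cells, and Sod3, the extracellular superoxide dismutase, at 4.19, 17.8 and 471. In 17 of the 19 genes a single cell held over 10% of the lateral ventricle reads, and in 15 the blocks did not overlap. As with the higher genes, the blocks are subsets of the cells that set the calls, so their order is largely fixed by the selection. In the midbrain cells 18 of the 19 were also above the lateral ventricle level, 6 of them at least 4-fold.

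Signals to the neighbouring stem cell niche were mostly low. Of 40 measured niche signals, 0 were called higher or lower than both regions, and 13 stood under 1 CPM. Of the 18 that could be called against the third ventricle alone 1 was higher and 1 lower, and of the 18 against the spinal cord alone 5 were higher and 2 lower, beside 4.36% and 2.54% of all genes. Their median log2 ratios were -0.23 and 0.85. Noggin (Nog), a secreted BMP antagonist, stood at 4.11 CPM with reads in 17 cells (7.08%), against 1.27 CPM for the third ventricle and 11.9 for the cord. Wnt5a and Slit2, a repellent of migrating neuroblasts, stood at 35.8 and 45.5 CPM, against 19.1 and 14.9 in the third ventricle and 4.69 and 0.581 in the spinal cord. Dkk3 was the reverse between the ventricles, at 254 CPM in the lateral and 472 in the third ventricle. Cell cycle genes were low: 13 measured members summed to 116 CPM, and Top2a stood at 0.0608 CPM.

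Markers of other brain cell types differed widely in level by list. The neuroblast, oligodendrocyte precursor, neuron, endothelial and mural lists each had a per-cell median of 0 CPM, and their summed levels ran from 2.35 CPM (precursors, 8 genes) to 26.4 CPM (neuroblasts, 8 genes). The deposited data held only 2 of 10 listed endothelial and 5 of 11 mural markers, so low sums say little about those types. The highest single cells reached 431 CPM on the neuron, 626 on the microglia and 1094 on the oligodendrocyte list, and doublets were not called. Olig2, Sox10, Pdgfra, Cx3cr1 and Rbfox3 had 0 reads, while Dcx stood at 0.0387 CPM. The microglia list summed to 54.4 CPM with a per-cell median of 1.65 CPM, and C1qa had 0 reads. The oligodendrocyte list summed to 119 CPM with Mbp at 65.8 and Mog at 0 reads. The stem cell and progenitor list had a per-cell median of 482 CPM and summed to 637 CPM, against 1116 CPM for third-ventricle and 836 CPM for spinal cord cells. Its highest members were Slc1a3 at 288, Gfap at 89.9 and Id4 at 81.3 CPM, while Egfr stood at 0.569 CPM. The astrocyte list summed to 3503 CPM, but Gja1, S100b and Aqp4, which ependymal cells also make, held most of it, and Aldh1l1 was at 25.5. The choroid plexus list, whose tissue lies in the same cavity, summed to 676 CPM against 312 for the third ventricle and 507 for the cord, with Folr1 at 385, Otx2 at 125 and Ttr, the main choroid plexus product, at 9.61 CPM. Ttr reads at 10 CPM or more were in 31.7% of lateral ventricle, 14.7% of third-ventricle and 27.2% of spinal cord cells. The part of choroid plexus RNA in the regional differences, Otx2 among them, was not tested.

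Among genes read in at least 10% of lateral ventricle cells, spread between cells was widest for Fos, Egr1, Dusp1 and Acta2. Spread was taken as the squared coefficient of variation of per-cell CPM, relative to the running median of 200 genes of like mean, and a log2 excess of 1.5 or more was called wide. Of 7154 genes with a mean of 20 CPM or more, 45 (0.629%) were wide, beside 56 of 7351 in the third ventricle and 41 of 7280 in the spinal cord. Fos, an immediate early gene, led with an excess of 5.09. It had a per-cell median of 1.37 CPM and a maximum of 18301 CPM, and the 24 highest cells (10%) held 86.2% of its summed CPM. Egr1 and Dusp1 followed, with excesses of 3.50 and 3.45, and 11 of 16 testable immediate early genes were wide. Of 9 testable contractile genes 3 were wide. Fos, Egr1 and Dusp1 were also spread in the third ventricle, with excesses of 4.04, 3.48 and 3.06. The summed immediate early level per cell had a median of 514 CPM in lateral ventricle cells, 869 in third-ventricle cells and 1119 in spinal cord cells. Immediate early genes are known to respond to tissue dissociation, whose time the labels do not give, and its part was not tested.

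**Figure D4:**
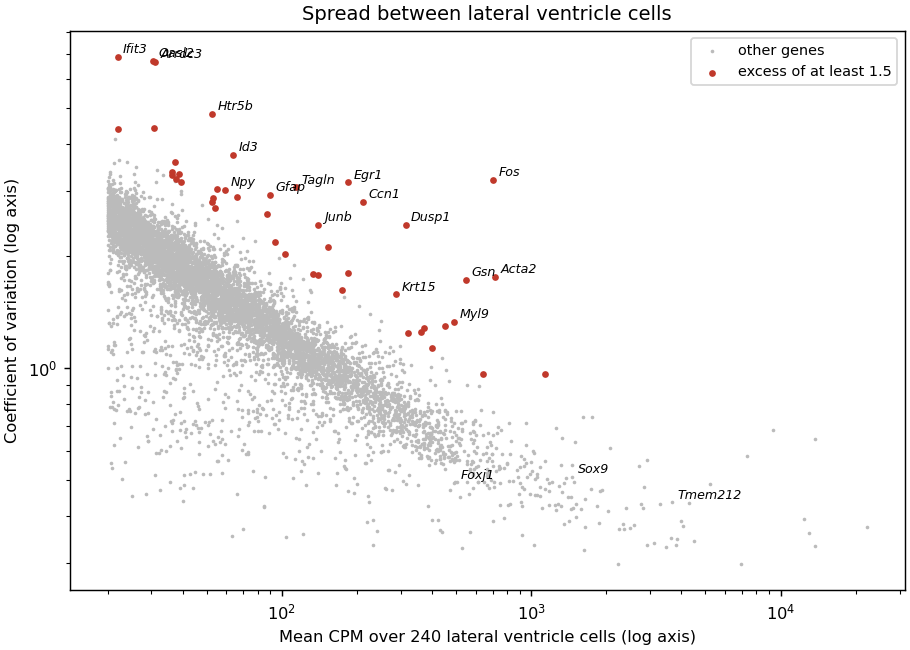
Coefficient of variation of per-cell CPM against mean CPM over the 240 lateral ventricle cells, both on log axes, for genes with a mean of at least 20 CPM. The 45 wide genes (red) include Fos, Egr1, Dusp1, Acta2 and Gsn, while Foxj1, Sox9 and Tmem212 lie among the other genes.

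Acta2 was above 100 CPM in most cells, while Tagln, Gfap and 2 interferon targets were so in minorities. Acta2, smooth muscle actin, had an excess of 3.37: 173 cells had reads, 139 were above 100 CPM and 54 above 1000 CPM. At 10 CPM or more it was in 61.3% of lateral ventricle, 50.6% of third-ventricle and 14.9% of spinal cord cells. The contractile genes summed per cell had coefficients of variation of 0.789, 0.664 and 0.483 in these regions. Its blocks stood at 811, 287 and 1105 CPM, the low one being the mostly male block with fewer detected genes. The CArG box, the binding motif of serum response factor, was found in promoters of 3 of 15 genes of the contractile list, against 1.81% of all genes. These were Myl9, Vcl and Srf, the factor itself. The list had 17 measured genes, and only 15 genes of it had a promoter entry. Whether Acta2 and Tagln were among those 15 is not given, so their promoters cannot be said to lack the motif. A link between this letter match and the spread was not tested. Tagln, an actin-binding muscle gene, exceeded 100 CPM in 44 cells and stood at 53.4, 62.0 and 205 CPM by block. Gfap, the intermediate filament of astrocytes, exceeded 100 CPM in 56 cells. Oasl2 and Ifit3, targets of interferon, exceeded 100 CPM in 20 and 11 cells, with 4 cells shared, and a single cell held 35.0% and 36.2% of their reads. Htr5b, a serotonin receptor, was read in 29 cells, 4 of them above 1000 CPM.

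The leading axis of variation followed detection, and the next one opposed a pair of gene groups. Component 1 of 2000 genes took 4.70% of the variance and its score correlated with the number of detected genes (r = 0.90 over 240 cells, which share a sample). Its mean was 0.44, -1.12 and 0.69 in the blocks, the low value in the block with fewer detected genes. Component 2 took 1.80% of the variance and its score had an r of 0.04 with detection. On 1 side it weighted Zic4, Cdh26, Msx1, Paqr5, Musk, Lrp8, Wls and Igfbp2. On the other side it weighted Timp4, an inhibitor of matrix proteases, Tagln, Etnppl, Htr5b, Calb1, Tgm2, Myl9 and Sfrp1, a Wnt antagonist. The means of the 15 top genes of each side had a Spearman correlation of -0.54 across the lateral ventricle cells, which the component's choice fixes, of -0.21 across the third-ventricle cells, of -0.27 across the midbrain cells with low Sspo and of 0.14 across the spinal cord cells.

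**Figure D5:**
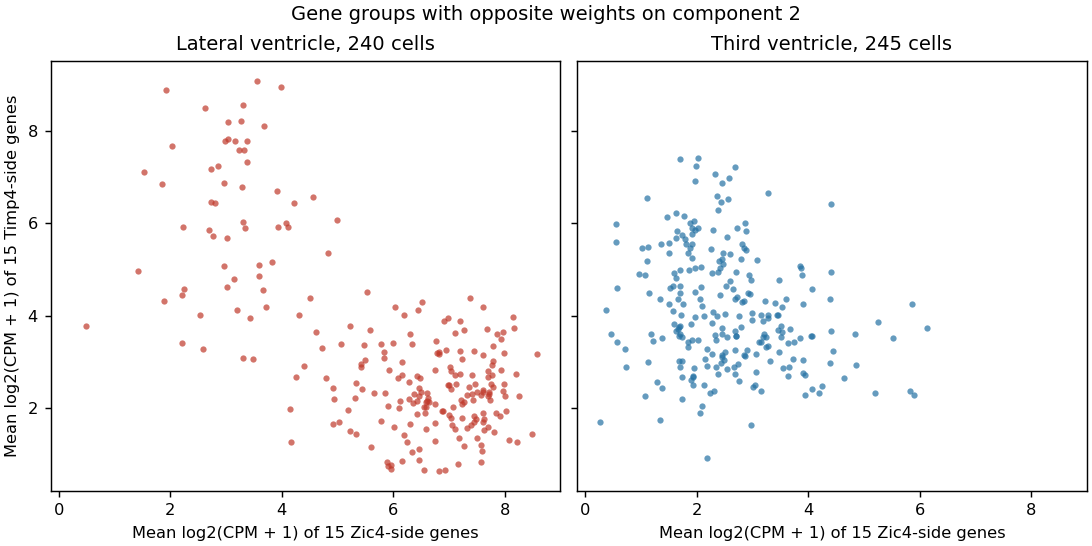
Mean log2 of CPM plus 1 of the 15 genes on the Zic4 side (horizontal) against the 15 on the Timp4 side (vertical) of component 2, 1 point per cell, in lateral ventricle (left) and third-ventricle (right) cells. In the lateral ventricle 184 cells have the higher Zic4-side mean and 56 the higher Timp4-side mean, and in the third ventricle 204 of 245 cells have the higher Timp4-side mean.

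In 56 of 240 lateral ventricle cells (23.3%) the Timp4-side mean exceeded the Zic4-side mean, as it did in 204 of 245 third-ventricle cells (83.3%) and 65 of 114 spinal cord cells (57.0%). The Zic4 side holds genes called higher in the lateral ventricle, Zic4, Cdh26, Paqr5 and Musk among them, so the shares in the other regions follow in part from the choice of genes. The 56 cells came from all blocks (16, 16 and 24 cells) and from both sexes (14 female, 20 male), and had a median of 5720 detected genes against 5336 in the other 184. The ependymal markers were present on both sides, with Foxj1, Tmem212 and Ccdc153 reads in all 56, at 448, 2791 and 3131 CPM, against 505, 3852 and 4054 CPM. Among genes outside the 30, Nkx2-1, the ventral forebrain and hypothalamic factor, was read in 23 of the 56 (41.1%) and 11 of the 184 (5.98%). Meis2, a homeobox factor of the striatal primordium, was read in 66.1% and 28.3% of them. Other regional factors went both ways. Dmrt3 was read in 3.57% and 21.2%, Otx1 in 17.9% and 33.2% and Otx2 in 41.1% and 74.5%, whereas Lhx2 was read in 19.6% and 10.3%. With 10 CPM in place of 1 read the shares were 30.4% and 4.89% for Nkx2-1, 58.9% and 21.2% for Meis2 and 1.79% and 19.0% for Dmrt3. Emx1 was read in similar shares, at 26.8% and 25.5%. Gsn, an actin-severing protein, stood at 1685 and 232 CPM, Acta2 at 1831 and 359 CPM and Slc1a3, the glial glutamate transporter, at 556 and 198 CPM. Slco1c1 was read in 4 of the 56 cells and 57 of the 184. The split and these genes were chosen after the values were seen, in the same cells, so these values describe it and carry no test.

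Nkx2-1 was also taken alone. Of its 34 positive lateral ventricle cells, 38.2% (22.2 to 56.4%) had Zic4 reads, against 78.2% (71.9 to 83.6%) of the other 206 cells, and 97.1% against 68.0% had Acta2 reads. Dmrt3 was read in 1 of the 34 and in 40 of the 206. At 10 CPM or more, 34.6% of 26 Nkx2-1 cells and 72.0% of the other 214 had Zic4. Otx2 did not separate them, at 64.7% and 67.0%. These pairs were chosen after their values were seen.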

How the data were processed

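RNA of single sorted cells was sequenced in 5 samples, 1 per region and line. The authors deposited whole-number counts of reads per gene and cell (16347 genes) and a normalized log2 table. The deposited log2 values equalled log2 of count over a size factor plus a pseudocount of 1 within 0.01 for 100% of values, and served only as an alternative scaling. Reads were handled with STAR 2.3.1o and Seurat 3 on mm10, per the submitters' processing notes; the counting tool, its annotation and any filter on cells are not given in the sources used here. Gene symbols were matched to GENCODE M21 for positions and lengths (16030 matched, 317 not).

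Each sample's counts were pooled over its cells and expressed as CPM. In ratios, sums of fewer than 3 reads were raised to a floor of 3 reads. Samples held too few replicates (1 per group) for any model or test. Genes of 10 CPM or more and 10% of cells were called at 4-fold, and the rules were tested on simulated data. Spread used genes of 20 CPM or more, and components used log2 of CPM plus 1. Shares were repeated with each cell thinned to 100000 reads. All cells in the table were kept, and doublets were not called. The columns named Forebrain and Tanycytes were matched to the lateral and the third ventricle by anatomy, since the titles do not use these words. Genes were named by rule: the given markers, the list members and the 15 leading genes of each call, of level per length, of spread and of each side of components 1 and 2, apart from genes next to the fold limit, Sspo and those said to be chosen after their values were seen. Members and lists were chosen with earlier results of these data known. Precision is limited by counting error within cells and by the single sample per region; without molecular identifiers, reads do not count molecules one by one. Alternatives changed the fold, level minimum, scaling, read depth, cell sex and blocks. Tools were Python 3.11.15, numpy 2.4.6, pandas 2.3.3, scipy 1.17.1, matplotlib 3.10.9, R 4.3.3 and edgeR 4.0.16 (TMM factors only). Some genes are not reported here.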

Additional observations from a re-analysis of the deposited data

Results flagged for a closer look

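A reporter that the genotype label of the Foxj1 line does not name was counted in these cells, and no comparison above uses it. Egfp stood at 41.0 CPM in the lateral ventricle cells, with reads in 156 of 240 cells (65.0%, 58.6 to 71.0%). The same line had 20.3 CPM in the third ventricle, 45.2 CPM in the spinal cord and 115 CPM in the midbrain. The Nkx2-2 line, a separate Cre line with 7 animals, all female, had 9.62 CPM. By the titles, its wells bear another prefix than those of the ventricles and the cord. The midbrain wells of the Foxj1 line bear both prefixes. The part of line, sex or well series in these levels was not tested.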

How the results depend on the processing

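Every count but that of genes higher than in the spinal cord alone (437) moved by more than 1.5 times under some alternative. The cause was not tested beyond what the alternatives' own construction shows. The counts against 1 region alone were not repeated at other folds or minimums or on the normalized values. The 437 thus met fewer alternatives than the counts against both regions. The 48 genes higher and 19 lower than both regions became 161 and 118 at 2-fold, 20 and 1 at 8-fold, 269 and 316 with no minimum level or share, and 16 and 4 with a minimum of 50 CPM. On the deposited normalized log2 values, whose means weight low reads differently, they became 31 and 9, sharing 13 and 3 genes with the 48 and 19. Male cells alone, which are fewer, gave 75 and 63, sharing 32 and 10. Against the third ventricle alone, 70 higher and 90 lower became 166 and 249 in male cells and 163 and 225 in female cells. Against the spinal cord alone, 254 lower became 426 in male cells. The 45 genes of wide spread became 99 at an excess of 1. The other 45 counts stayed within 1.5 times, among them those under TMM and median-ratio scaling, thinning and leaving out a block of cell numbers. Of 120 folds of named genes 78 moved by 0.1 or more on the log2 scale, and 0 changed direction. Of 208 list medians 53 moved by as much, and among those with a main size of at least 1, 0 changed direction. In male cells 6 of 30 named folds fell under the 4-fold limit, at log2 values of 1.5 (Astn1), 1.51 (Hs3st3b1), 1.55 (Scd4), 1.82 (Slc14a1), 1.86 (Pvr) and 1.94 (Dok5), and on means of per-cell CPM 1 did (Pvr, 1.86); 6 list medians, all of them at most 0.36 in size, changed sign. Female cells were not compared with the spinal cord, which held 1. The counts against 1 region alone in cells of 1 sex, and their other alternatives, were chosen after seeing the data. No paired analysis was possible because each group held 1 sample. At these depths a sample's floor of 3 reads was 0.0166 CPM for the lateral ventricle and 0.0317 for the spinal cord, and reads seen in few cells limit the sparse factors.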
